A study of Mus musculus with 29 samples.

Results

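The tibialis anterior (TA) muscle of 7 mice aged 6 months (6m) was sequenced in 2 separate preparations, which gave 14 of the 29 libraries of the series. The members were the 7 columns of the first run that carry the 6m names and the 7 columns of the second run whose names repeat them. The mice are numbered here as mouse 1 (A22L), mouse 2 (A23L), mouse 3 (A23B), mouse 4 (A22N), mouse 5 (A23N), mouse 6 (A22B) and mouse 7 (A23R). All were untreated male C57BL/6 mice from the aging colony of the National Institute on Aging, with no engineered allele, and each gave 1 whole TA muscle, taken after the animals had completed a battery of physical function and exercise tests. The rest of the series, 7 libraries at 24m and 8 at 28m, serves here only as a frame for a few levels. Poly-A RNA was prepared with the NEBNext Ultra II kit and read single end on a NextSeq 550. The methods describe the same 6m samples in both runs, with libraries made anew beside each older group, and mention no second extraction of RNA. Each preparation was sequenced in its own run, so preparation and sequencing run cannot be told apart. With 1 muscle per mouse, a difference between mice cannot be told apart from a difference in dissection or extraction, and in whole muscle fewer cells of a type and less RNA per cell cannot be told apart.

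The mouse TA lifts the foot and is built almost wholly of fast glycolytic fibres, whose thick filaments hold the myosin heavy chains IIb and IIx. Such fibres carry very high levels of transcripts for the contractile apparatus, for calcium release and uptake by the sarcoplasmic reticulum, and for the breakdown of glycogen. Around the fibres lie fibroblasts, blood vessels, nerve, resident macrophages and satellite cells, the stem cells of muscle, and many muscle genes follow the time of day, glucocorticoids and feeding.

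The 14 libraries held between 17633475 and 28581963 counted reads (median 22747592), and the 10 highest genes took 24.6 to 25.8% of them. The tissue label matched its markers: Myh4, the type IIb myosin, had the highest mean CPM of all genes while the 11 keratinocyte genes in the table summed to 10.8 to 13.6 CPM per mouse, with 4 of them at 0 and Trp63 at 5.52 to 10.9 CPM. No gene with a mitochondrial name was in the table (0 rows), so the mitochondrial values below are for nuclear genes. The first library of mouse 4 stood apart from the other 13: its deviations from the mean of its run followed transcript length with a Spearman rho of -0.657 across genes. In the others rho lay between -0.177 and 0.448. The mean of the first run includes this library, so the values of the other first libraries depend on it. Counts of genes that passed a test are therefore given with and without mouse 4.

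Genes of the abundant programs took 46.9 ± 0.606% of all counted reads (SD, n = 7 mice, mean of both libraries), from 276 of the 22537 genes in the table. The fast sarcomere genes held 14.8 ± 0.197% and the sarcomere genes shared by all striated fibres 11 ± 0.216%. Calcium handling took 6.69 ± 0.27%, glycogen breakdown and glycolysis 5.94 ± 0.234%, phosphate buffering (creatine kinase, adenylate kinase and their partners) 3.44 ± 0.249% and oxidative phosphorylation 2.94 ± 0.296%. Lipid oxidation with myoglobin took 0.914 ± 0.0941%, ribosomal proteins 0.874 ± 0.0872% and the slow fibre genes 0.284 ± 0.0203%. Because a long transcript gives more reads per molecule, the shares were also taken on counts divided by exonic length. On that scale oxidative phosphorylation rose in rank from the sixth to the fourth place with 6.59 ± 0.452%, ribosomal proteins held 2.3 ± 0.123% and the fast sarcomere 18.3 ± 0.364%.

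**Figure D1:**
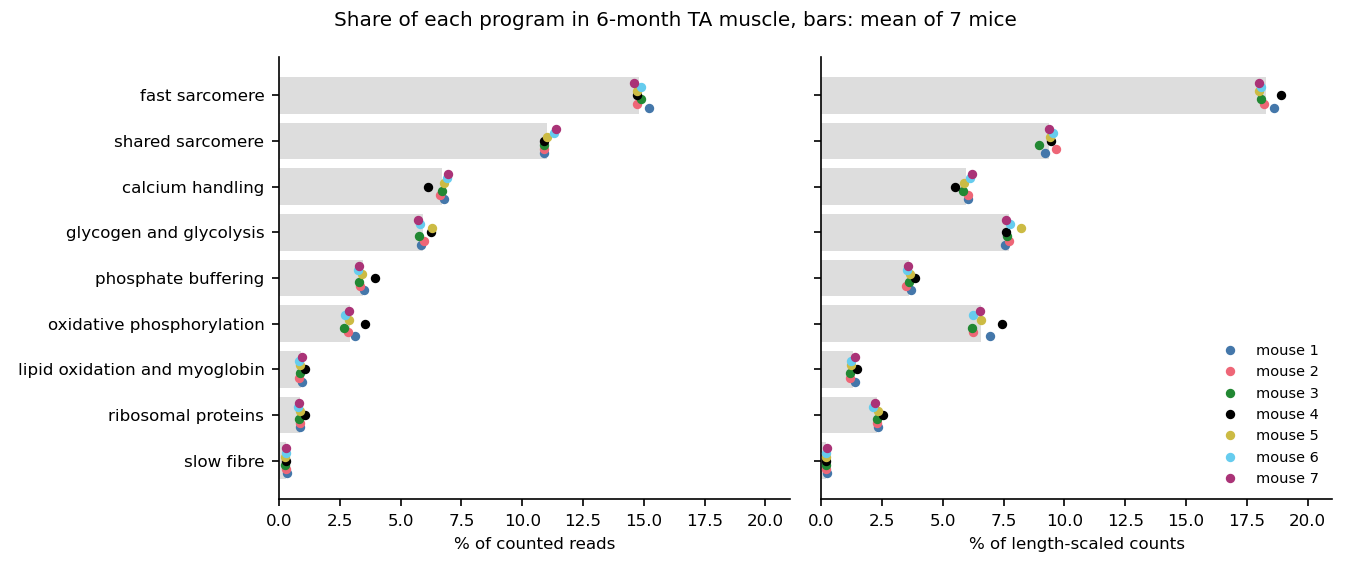
Share of each program in the 6m libraries, as % of counted reads (left) and % of length-scaled counts (right); bars are the mean of 7 mice and points the mean of both libraries of each mouse. The fast sarcomere leads on both scales at 14.8% and 18.3%, and mouse 4 lies apart in oxidative phosphorylation with 3.54% of counts against 2.67 to 3.11% in the other mice. Of length-scaled counts, the first library of mouse 4 held 8.3% for that program and its second 6.53%. The mean over all second libraries was 6.43%.

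The level per length was led by Acta1, the skeletal muscle actin, at 52400 ± 1980 on a length-scaled scale (counts per base of exon, scaled like TPM, ± SD over the 7 mice). Next came the fast troponins Tnnt3 (40800 ± 1650) and Tnnc2 (34000 ± 3010), the calcium pump Atp2a1 (29500 ± 2840), Myh4 (27700 ± 2990) and the glycolytic aldolase Aldoa (27600 ± 1360). The muscle creatine kinase Ckm stood at 22700 ± 629 and Pvalb, a calcium buffer of fast fibres, at 16800 ± 1800. In CPM, the share of reads scaled to the library's depth and not divided by length, the order was led by Myh4 at 63800, Atp2a1 at 39300 and Acta1 at 29200. Myh4 read between 56700 and 70500 CPM in 13 libraries and 46400 in the first library of mouse 4.

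The fast and slow myosins were far apart. On the length-scaled scale Myh1, the type IIx myosin, stood at 6570 ± 760, Myh2, the type IIa myosin of fast oxidative fibres, at 343 ± 91.1 and Myh7, the slow myosin, at 1.37 ± 0.469. In CPM, Myh2 had a lowest, median and highest value of 553, 783 and 1150 in the first preparation and of 577, 801 and 1160 in the second. Mouse 7 was highest for Myh2 in both. Myl3, the slow light chain, ran from 25.9 to 80.2 CPM in the first preparation and from 23.8 to 74.3 in the second, with mouse 1 highest in both. Tnni1, the slow troponin I, read 10.3 and 9.48 CPM in mouse 2 and 1.42 to 3.24 CPM in the other mice. The precursor of ribosomal RNA, Rn45s, which has no length in the annotation, stood at 7800 CPM, with 6450 to 8770 across the 14 libraries.

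The start regions of the 2 actin genes are shown because Acta1 was the most abundant transcript per length and its cardiac paralog Actc1 was among the 12 genes that varied most between mice. Each window runs 5′ to 3′ on the gene's strand, from 250 bases before the RefSeq start site to 50 after (GRCm38.p6), and capitals mark a CArG box, the site bound by serum response factor. The Acta1 window lies at chr8:123894726-123895025 and that of Actc1 at chr2:114052826-114053125, both on the minus strand.
Acta1: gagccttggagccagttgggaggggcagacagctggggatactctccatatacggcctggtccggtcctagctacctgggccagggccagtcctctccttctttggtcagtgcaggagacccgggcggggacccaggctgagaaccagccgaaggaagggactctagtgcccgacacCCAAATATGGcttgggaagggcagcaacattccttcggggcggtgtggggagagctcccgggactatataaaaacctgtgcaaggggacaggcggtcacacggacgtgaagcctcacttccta
Actc1: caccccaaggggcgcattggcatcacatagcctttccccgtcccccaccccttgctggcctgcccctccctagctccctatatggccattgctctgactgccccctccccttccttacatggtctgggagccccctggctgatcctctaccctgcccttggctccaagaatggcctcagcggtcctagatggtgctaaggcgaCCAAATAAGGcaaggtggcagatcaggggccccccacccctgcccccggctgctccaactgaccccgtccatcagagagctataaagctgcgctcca
The Acta1 match began 73 bases before the start site and that of Actc1 47 bases before it. Of all 32851 windows, 1.63% held a CArG box on either strand. Of the 26 fast or shared sarcomere genes with a window (37 listed), 4 did (Acta1, Ldb3, Myh4 and Myom1). A gene counted if any of its windows held the box, so the share of windows is not matched to this count of genes. A match describes letters and not a site in use.

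Among the 7 libraries of the second run, each first library was nearest to that of its own mouse. After the mean of each run was taken away, the correlation across genes with the own repeat was 0.837 for mouse 2, 0.657 for mouse 3, 0.603 for mouse 1, and 0.493 to 0.53 for mice 5, 6 and 7. Mouse 4 had 0.215 with its own repeat and 0.203 with the next best library. The mean over the 7 pairs was 0.548, the highest of all possible pairings of first with second libraries (exact permutation test, one-sided, p = 0.000198, the smallest they can give). On the 500 most variable genes the mean was 0.695.

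Mouse 4 was also the pair whose libraries differed most. The SD of the log2 difference between the 2 libraries of a mouse was 0.603 in mouse 4 and 0.203 to 0.243 in the other 6. In mouse 4, 13.4% of genes lay within 0.1 log2 units of each other, against 45.2 to 58.4% in the others. The difference of mouse 4 ran with transcript length, from a median of -0.618 in the shortest of 10 equal bins of genes (median exonic length 1079.5 bases) to 0.705 in the longest (8788 bases). Nos1, the neuronal nitric oxide synthase of fibres, read 5.77 CPM in its first library and 97.4 in its second, and Ppp1r12b, a myosin phosphatase subunit, 13.9 and 105 CPM. Short transcripts went the other way, with Cox4i1, a cytochrome c oxidase subunit, at 1380 and 744 CPM and Rps14, a ribosomal protein, at 307 and 161 CPM.

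**Figure D2:**
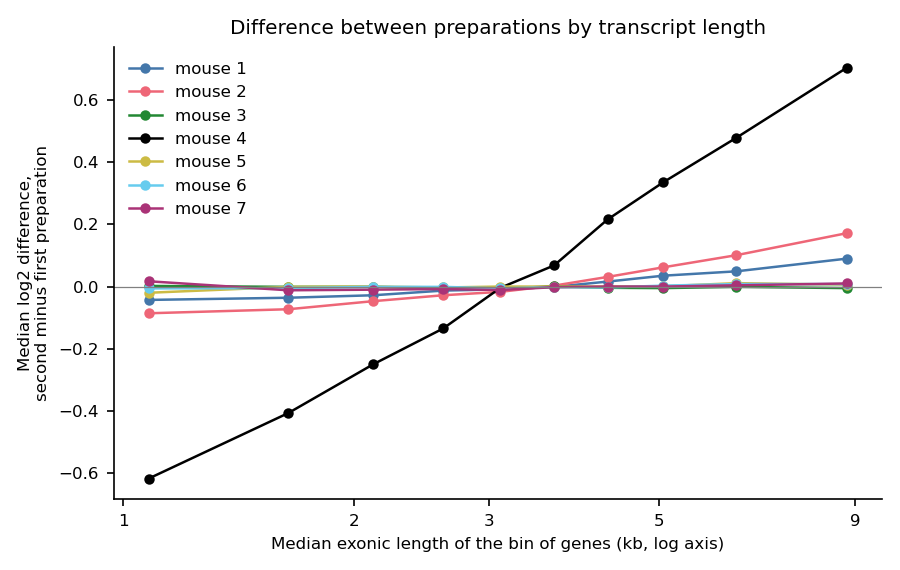
Median log2 difference (second minus first preparation) in 10 bins of genes ordered by exonic length (kb, log axis), 1 line per mouse. Mouse 4 climbs from -0.618 to 0.705, mice 1 and 2 climb to 0.09 and 0.172, and mice 3, 5, 6 and 7 stay between -0.02 and 0.017.

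A smaller trend of the same sign was present in mouse 2 (rho 0.4) and mouse 1 (rho 0.236), while in mice 3, 5, 6 and 7 rho lay between -0.013 and 0.038. The mean over the 7 mice was 0.196 (exact permutation test by sign flips, two-sided, p = 0.0312, where 7 pairs allow 0.0156 at best), and without mouse 4 it was 0.118 (exact permutation p = 0.0625).

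In the 6 mice without mouse 4, the spread between preparations was close to counting error in genes under 100 CPM. The median SD between preparations of 1 mouse was 0.322 log2 units in genes under 1 CPM, 0.0745 at 10 to 30 CPM and 0.0265 at 300 CPM and over. Counting error alone would give 0.362, 0.071 and 0.0128. The median SD between mice was 0.339, 0.107 and 0.109 at the same levels, or 1.05, 1.44 and 4.12 times that between preparations. The SD between mice is of means of 2 libraries and that between preparations is of single libraries. A ratio near 1 is therefore not the value expected without differences between mice. The median share of variance that lay between mice was 39.6%, 63% and 93.5% at these levels. The biological coefficient of variation between preparations, the spread left after counting error, was 2.66% without mouse 4 and 9.45% with it.

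**Figure D3:**
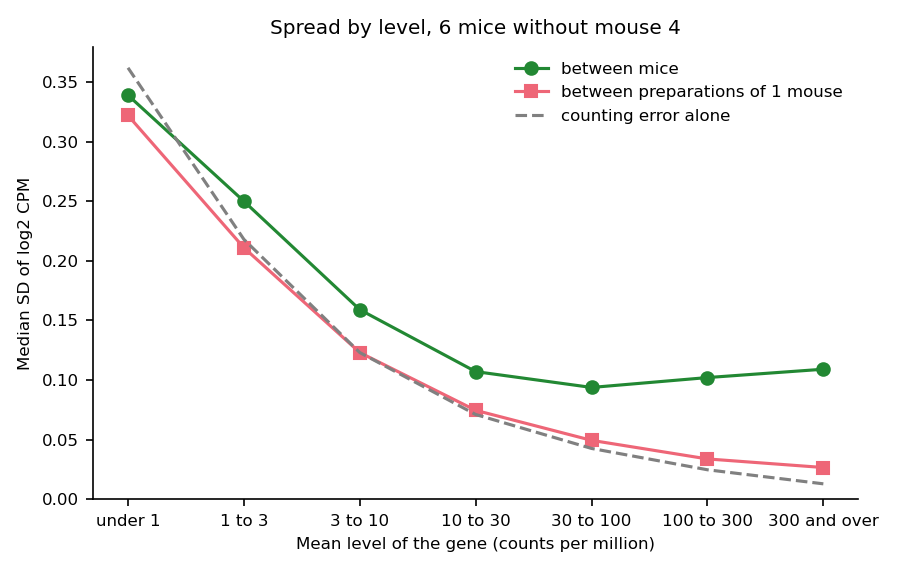
Median SD of log2 CPM by mean level of the gene (CPM) in 6 mice: between mice (circles), between the preparations of 1 mouse (squares) and from counting error alone (dashed). Circles are taken on means of 2 libraries and squares on single libraries. The preparation spread falls from 0.322 to 0.0265 while that between mice stays between 0.0937 and 0.109 from 10 CPM.

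The first question was which genes differed between the 7 mice beyond the spread between their preparations. With edgeR's quasi-likelihood test of the mouse terms and Benjamini-Hochberg adjustment, 2425 of 12884 genes passed an adjusted p of 0.05 (18.8%). Without mouse 4, 7974 of 12911 did (61.8%), and 2404 genes passed in both. Without mouse 4 that share rose with level, from 33.4% of genes under 1 CPM to 98.9% at 300 CPM and over. The 61.8% is therefore not a background matched in level to the lists below. Most differences were small, and 565 of the 2425 had an SD over mice of at least 0.5 log2 units (686 without mouse 4) while 40 had at least 1 (50 without mouse 4). Mouse 2 had the highest level in both preparations for 352 of the 565 genes and mouse 3 for 60 (400 and 69 of the 686 without mouse 4). Mouse 3 was lowest in both for 113 and mouse 1 for 78 (165 and 151 without mouse 4). Without mouse 2, 1024 genes passed.

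Fibroblast and collagen genes moved together across the mice. All 25 passed the test of the mouse terms (with or without mouse 4), against 18.8% and 61.8% of all genes, with a median SD over mice of 0.616 against 0.162 for all genes, and mouse 2 was highest in each. Col3a1 (chr1:45311538-45349706, GRCm38), the chain of type III collagen, read 154, 1400, 116, 156, 147, 387 and 205 CPM in mice 1 to 7 of the first preparation. The second preparation gave 154, 1380, 109, 176, 154, 381 and 196 CPM in the same order. Mouse 2 thus lay above all others and mouse 6 came next in both preparations (SD over mice 1.24 log2 units, edgeR adjusted p = 8.51e-09).

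The same order held for Postn, periostin, a matrix protein of growing and healing tissue, with 92.2 and 92.3 CPM in mouse 2, 15.6 and 16.7 in mouse 6 and 3.43 to 7.27 in the rest (adjusted p = 8.51e-09, edgeR). Col1a2, a chain of type I collagen, read 809 and 819 CPM in mouse 2 and 101 to 311 elsewhere. The summed level of the 25 genes was 6720 CPM in mouse 2, 3480 in mouse 6 and 1890 to 2460 in the other mice. The Col3a1 levels of mouse 2 were above the highest values at 24m (842 CPM) and 28m (345 CPM).

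Mouse 2 was also highest for 3 single muscle genes, chosen after their values were seen or for their large spread. Actc1, the cardiac actin of embryonic and regenerating muscle, read 332 and 323 CPM in mouse 2, 136 and 138 in mouse 6 and 24.5 to 50.6 in the other mice (adjusted p = 8.51e-09, edgeR). The highest value of Actc1 was 121 CPM at 24m and 162 CPM at 28m. Myh3 and Myh8, the embryonic and neonatal myosins, were looked up after the values were seen, and read 26.3 and 27.4 CPM and 50.5 and 51.6 CPM in mouse 2. The other mice had 2.71 to 6.44 CPM of Myh3 and 6.74 to 17.5 CPM of Myh8. At 24m Myh3 reached 97.7 CPM and Myh8 108 CPM, so mouse 2 was not beyond the older mice there. The fibroblast and collagen genes were high in the same mouse (6720 CPM in sum), and their part in these levels was not tested.

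Among the 12 genes with the largest SD over mice were 2 imprinted growth regulators. Dlk1, a Notch-like membrane protein, read 8.47 and 7.83 CPM in mouse 2 and 0.224 to 1.08 CPM in the other mice, with at most 1 CPM at 24m and 0.683 CPM at 28m. Plagl1, a zinc finger factor, read 9.3 and 9.19 CPM in mouse 2 and 0.529 to 2.47 CPM elsewhere, with at most 1.77 CPM at 24m and 1.62 CPM at 28m. The imprinted noncoding RNAs Meg3 and H19 had mouse 2 highest as well: Meg3 at 55.6 and 57.6 CPM against 8.64 to 24.6, and H19 at 741 and 699 CPM against 205 to 420. Mouse 2 also led in the fibroblast and collagen list, whose part in these values was not tested. The adjusted p of Dlk1 was 8.09e-06 (0.378 without mouse 2, and 0.0704 without mice 2 and 4) and those of Plagl1, Meg3 and H19 were 4.32e-07, 3.11e-07 and 4.84e-07 (edgeR).

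Markers of other cell types differed in how far they varied. Of the immune genes 18 of 18 tested passed (with or without mouse 4) against 18.8% and 61.8% of all genes, and mouse 2 was highest in 15 under either fit, with a summed level of 525 CPM against 177 to 363 in the other mice. F13a1, a factor of resident macrophages, ran from 7.1 to 25.7 CPM in the first preparation (median 12.2) and from 6.43 to 27.3 in the second (median 13.8), with mouse 1 lowest and mouse 2 highest in both. Of the tendon genes 13 of 15 passed on the same background (15 without mouse 4), and their summed level was 633 CPM in mouse 2, 518 in mouse 6 and 290 to 389 elsewhere. Angptl7, the tendon gene with the smallest p, had another order and was highest in mouse 6 at 25.7 and 27.9 CPM, with mouse 1 lowest at 5.7 and 6.61. Proliferation genes passed in 3 of 6 tested (4 of 7 without mouse 4, or 57.1% against 61.8% of all genes). Mki67 reached 1.77 and 2.46 CPM in mouse 2 against 0.179 to 1.16 elsewhere, with an adjusted p of 0.000481 that became 0.0599 without mouse 2 (edgeR), although Mki67 passed again when mouse 4 was left out as well.

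Vessel genes varied less, with a median SD over mice of 0.188 in the endothelial list against 0.616 in the fibroblast and collagen list. Of 15 endothelial genes 3 passed, although 15 did without mouse 4 (all genes 18.8% and 61.8%), and the summed level lay between 992 and 1290 CPM per mouse. Aqp1, the water channel of capillaries, read 348 CPM in both libraries of mouse 2, 538 and 536 in mouse 5 and 372 to 464 elsewhere (adjusted p = 0.000443, edgeR). Smooth muscle and pericyte genes passed in 4 of 14 (12 without mouse 4). The adipocyte genes passed in 9 of 13 (11 without mouse 4), and Cfd, adipsin, was lowest in mouse 7 at 7.91 and 8.32 CPM and highest in mouse 5 at 32.2 and 31.5.

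Blood genes were few. Among the erythrocyte genes 4 of 8 in the table were at 0 in all 14 libraries and 2 were tested, both passing with and without mouse 4. Alas2, the heme enzyme of red cell precursors, read 4.54 and 5.21 CPM in mouse 1 and 30.1 and 24.8 in mouse 4. The beta globin row named Beta-s, looked up after the values were seen, ran from 60.7 to 428 CPM in the first preparation and from 53.4 to 250 in the second, lowest in mouse 1 in both. Of the Schwann cell and nerve genes 5 of 12 passed (6 without mouse 4) and of the keratinocyte genes 1 of 3 (1 without mouse 4), or 41.7% and 33.3% against 18.8% of all genes with all mice. Without mouse 4 the shares were 50% and 33.3%, beside 61.8% of all genes and 33.4% to 60.4% of genes at the levels under 30 CPM where these markers lay.

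**Figure D4:**
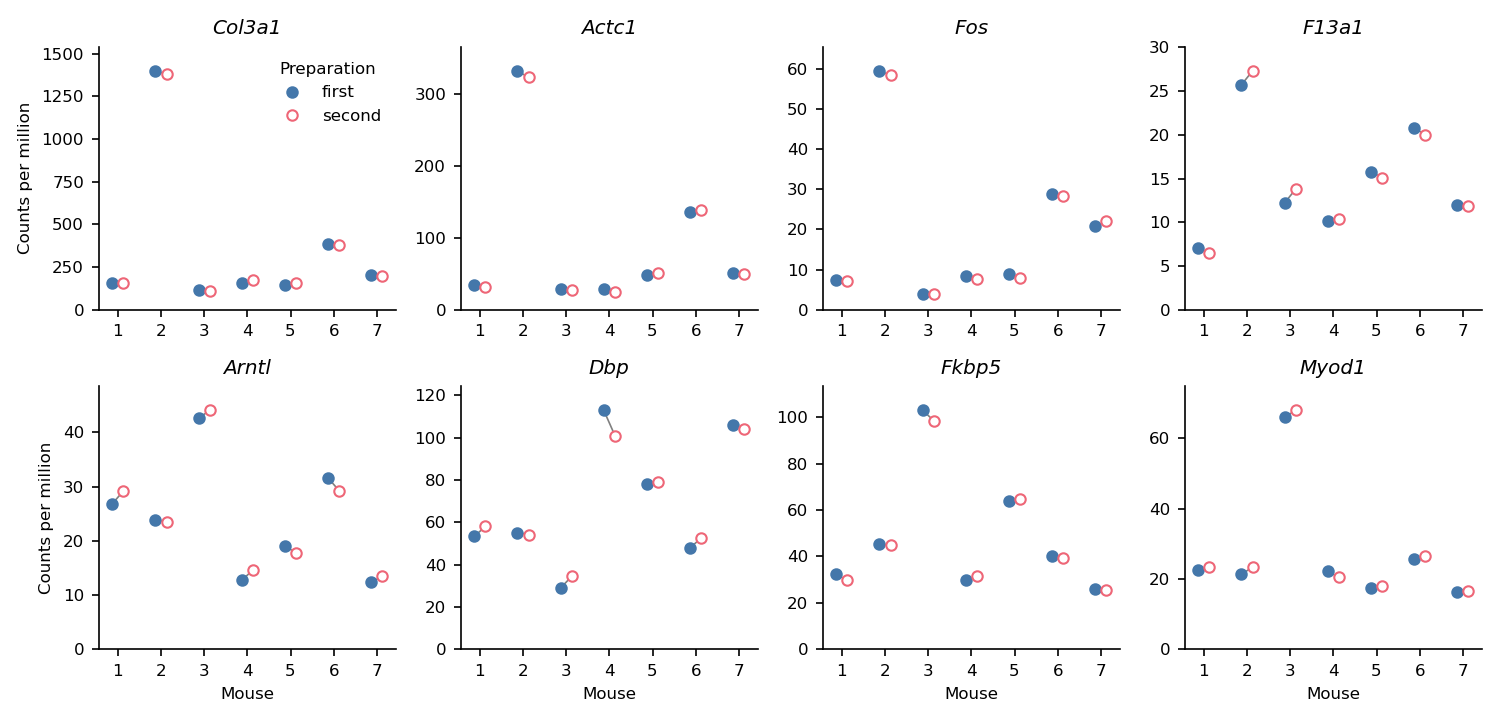
CPM of 8 genes in each mouse, with the first preparation (filled) joined to the second (open). Mouse 2 is highest for Col3a1, Actc1, Fos and F13a1 and mouse 3 for Arntl, Fkbp5 and Myod1, and the members of a pair lie close together relative to the range over mice.

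Immediate early genes, which are switched on within minutes by activity, stress or serum, passed in 20 of 23 (24 of 24 without mouse 4), against 18.8% and 61.8% of all genes. Their median SD over mice was 0.504, against 0.162 for all genes. Fos (chr12:85473890-85477273) read 7.31, 59.5, 3.98, 8.33, 8.83, 28.8 and 20.8 CPM in mice 1 to 7 of the first preparation. The second gave 7.11, 58.4, 3.97, 7.78, 7.94, 28.4 and 22 CPM. Mice 2, 6 and 7 were above the other 4 in both (adjusted p = 1.45e-08, edgeR). Fosb, its close relative, was 18.9 and 21.3 CPM in mouse 2, 11.5 in both libraries of mouse 6 and 0.51 to 2.28 in mice 1, 3, 4 and 5. Ptgs2, the inducible cyclooxygenase, was above 2.8 CPM in mice 2, 6 and 7 and below 0.51 in the other 4, with mouse 6 highest at 6.67 and 5.63. Mouse 2 was highest in 13 of the 23 (13 of 24 without mouse 4), and the part of the fibroblast and immune genes that were also high in this mouse was not tested.

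The circadian clock runs on activators (Arntl, Clock, Npas2) that drive the Per and Cry repressors and the output factors Dbp, Tef and Hlf. Of its genes 15 of 19 passed (19 without mouse 4), against 18.8% and 61.8% of all genes, and the median SD over mice was 0.289 against 0.162. Arntl (chr7:113207465-113314126) read 26.8, 23.9, 42.6, 12.7, 19, 31.6 and 12.3 CPM in mice 1 to 7 of the first preparation and 29.2, 23.4, 44.1, 14.6, 17.8, 29.2 and 13.5 in the second. Dbp read 53.3, 54.9, 28.9, 113, 78, 48 and 106 CPM in the first and 58, 54.2, 34.4, 101, 79.1, 52.5 and 104 in the second. The mouse with the highest Arntl, mouse 3, had the lowest Dbp, and the mice with the lowest Arntl, mice 4 and 7, had the highest Dbp. The adjusted p was 6.91e-06 for Arntl and 8.78e-06 for Dbp (edgeR).

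The Per genes, like Dbp, were high in mouse 7, which was highest in both preparations for Per1 (61.1 and 62.9 CPM), Per2 (19.5 and 21.8 CPM) and Per3 (56.7 and 60 CPM). The lowest values were 21.8 CPM for Per1 in mouse 6, 6.67 CPM for Per2 in mouse 2 and 21.1 CPM for Per3 in mouse 3. Nfil3, a repressor that opposes Dbp, was highest in mouse 3 at 44.4 and 41.3 CPM against 11.6 to 19.4 elsewhere. The time of day at which each muscle was taken is not given in the sources used here.

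The start regions of 4 clock genes that passed the test are shown because each holds a motif of the clock loop, marked in capitals. The motifs searched on both strands were the E-box CACGTG, bound by the activators, the D-box TTATGTAA, bound by Dbp and Nfil3, and the ROR element TAGGTCA, bound by the REV-ERB and ROR receptors. The windows are built as above (GRCm38.p6) and lie at chr7:113207261-113207560 (Arntl, plus strand), chr13:52980990-52981289 (Nfil3, minus), chr11:69098699-69098998 (Per1, plus) and chr4:151044616-151044915 (Per3, minus).
Arntl, ROR element: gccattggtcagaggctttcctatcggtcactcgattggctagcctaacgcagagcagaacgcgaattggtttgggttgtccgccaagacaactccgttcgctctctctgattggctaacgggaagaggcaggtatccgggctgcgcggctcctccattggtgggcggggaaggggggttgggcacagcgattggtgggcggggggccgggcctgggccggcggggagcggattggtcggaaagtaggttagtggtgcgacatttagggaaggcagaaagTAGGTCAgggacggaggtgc
Nfil3, ROR element: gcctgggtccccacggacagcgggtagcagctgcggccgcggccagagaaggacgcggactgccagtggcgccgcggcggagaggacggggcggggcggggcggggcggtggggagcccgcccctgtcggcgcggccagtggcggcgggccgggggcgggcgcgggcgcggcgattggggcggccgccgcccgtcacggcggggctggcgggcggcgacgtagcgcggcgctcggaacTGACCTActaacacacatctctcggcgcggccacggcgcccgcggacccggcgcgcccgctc
Per1, E-box: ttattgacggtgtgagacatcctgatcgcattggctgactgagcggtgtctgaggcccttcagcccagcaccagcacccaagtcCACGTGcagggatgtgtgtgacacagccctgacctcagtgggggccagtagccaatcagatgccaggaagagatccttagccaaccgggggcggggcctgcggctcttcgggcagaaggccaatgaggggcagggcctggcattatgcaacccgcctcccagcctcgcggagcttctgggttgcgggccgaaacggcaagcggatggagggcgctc
Per3, D-box: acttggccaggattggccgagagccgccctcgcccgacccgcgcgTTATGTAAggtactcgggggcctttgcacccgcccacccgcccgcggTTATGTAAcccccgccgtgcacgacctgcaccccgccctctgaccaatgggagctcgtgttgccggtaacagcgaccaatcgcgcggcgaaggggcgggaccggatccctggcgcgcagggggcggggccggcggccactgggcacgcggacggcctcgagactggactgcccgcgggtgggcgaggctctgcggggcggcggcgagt
Of the 17 clock genes with a window (20 listed) 5 held the E-box (Bhlhe41, Ciart, Cry1, Per1 and Tef), 2 the ROR element and 1 the D-box, in 2 copies. Among all 32851 windows the shares were 7.15%, 2.61% and 0.938%. A gene counted if any of its windows held a motif, so these shares of windows are not matched to the counts of genes. These motifs do not overlap in the windows shown.

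Glucocorticoid and atrophy genes passed in 19 of 23 (24 of 24 without mouse 4), where all genes gave 18.8% and 61.8%. Fkbp5, a chaperone induced by the glucocorticoid receptor, read 32.3, 45.2, 103, 29.8, 63.7, 40.3 and 26.1 CPM in the first preparation. The second gave 29.6, 44.8, 98.5, 31.6, 64.9, 39.2 and 25.5 CPM, so mice 3 and 5 led in both (adjusted p = 5.55e-07, edgeR). The metallothionein Mt2, a metal-binding protein, had the same leaders with 18.7 and 20.6 CPM in mouse 3 and 6.76 and 8.69 in mouse 5 against 1.69 to 5.8 elsewhere. Heat shock genes passed in 11 of 18 (17 without mouse 4). Hsph1, a large chaperone of the HSP110 family, was 156 and 155 CPM in mouse 3, 137 and 124 in mouse 5 and 65.4 to 75 elsewhere.

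The ubiquitin ligases Trim63 and Fbxo32, the classic atrophy genes, spread less. Trim63 lay between 196 and 271 CPM and Fbxo32 between 448 and 644 CPM over the 14 libraries, with adjusted p of 0.0196 and 0.0016 (edgeR). Among the satellite cell genes 5 of 10 passed (9 without mouse 4), beside 18.8% and 61.8% of all genes. Myod1, a master factor of the muscle lineage, read 66 and 68 CPM in mouse 3 and 16.2 to 26.4 in the other 6 mice (adjusted p = 6e-07, edgeR).

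Genes of fat handling gave a further order of the mice. Lipid oxidation genes passed in 13 of 24 (23 without mouse 4), with 18.8% and 61.8% over all genes. Ucp3, a mitochondrial carrier that rises with fatty acid use, was highest in mouse 3 at 230 and 229 CPM and lowest in mouse 2 at 89.2 and 92.2. Pdk4, the kinase that turns off pyruvate dehydrogenase, was highest in mouse 7 at 691 and 696 CPM and lowest in mouse 1 at 324 and 313. Lipid synthesis genes passed in 7 of 19 (14 without mouse 4), or 36.8% and 73.7% of them. Scd1, the delta-9 desaturase, read 92.8 and 92.1 CPM in mouse 6 and 20.4 and 21.3 in mouse 3, the mouse with the highest Ucp3 (adjusted p = 5.22e-07, edgeR).

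Interferon-stimulated genes passed in 15 of 25 (23 of 26 without mouse 4), where the shares over all genes were 18.8% and 61.8%, and their summed level ran from 123 to 198 CPM over the 14 libraries. Neuromuscular junction and denervation genes passed in 11 of 19 (16 without mouse 4). Hdac9, a class IIa histone deacetylase of muscle, was 2.1 and 2.27 CPM in mouse 3 and 6.31 to 10.6 in the others (adjusted p = 1.86e-05, edgeR). Musk, the receptor kinase that organises the junction, looked up after the values were seen, was highest in mouse 3 at 23.5 and 24.2 CPM.

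The widest single ranges belonged to genes outside these lists. Of the genes that passed at 1 CPM or more, Slc15a2, a peptide transporter, had the largest SD over mice, 2.32 log2 units. It read 9.77 and 9.99 CPM in mouse 5 and 8.63 and 7.84 in mouse 1, but 0.313 and 0.227 in mouse 3 and 0.102 and 0.0512 in mouse 4. Cyp26b1, the enzyme that clears retinoic acid, followed with an SD of 2.01. It read 97.2 and 105 CPM in mouse 1, 30.4 and 44.5 in mouse 4, and 1.87 to 3.13 in mice 2 and 7. The highest value of Cyp26b1 was 19.3 CPM at 24m and 13.1 CPM at 28m. S100a9, a protein of neutrophils, was 2.82 and 3.06 CPM in mouse 3, 3.42 and 2.55 in mouse 5 and at most 0.8 in the rest.

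In the abundant programs the counts depended on mouse 4. With all 7 mice 3 of 12 fast sarcomere genes passed, 4 of 25 shared sarcomere genes, 2 of 20 calcium handling genes, 3 of 20 glycolysis genes, 0 of 7 phosphate buffering genes, 1 of 77 oxidative phosphorylation genes and 0 of 75 ribosomal protein genes, against 18.8% of all genes. At an unadjusted p under 0.05 in edgeR, 6 phosphate buffering and 2 ribosomal protein genes passed. Without mouse 4 the counts were 12, 25, 19, 19, 7, 75 and 74, against 61.8% of all genes, but 94.1% of all genes at 100 to 300 CPM and 98.9% of those at 300 CPM and over also passed. The median SD over the 6 mice was 0.105 for the fast sarcomere, 0.13 for the shared sarcomere and 0.109 for oxidative phosphorylation, against 0.109 for all genes at 300 CPM and over and 0.133 for genes of every level. Slow fibre genes passed in 7 of 12 (12 without mouse 4), and their median SD over the 6 mice was 0.301.

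The second question was which genes shifted with preparation. With the mouse as a block and all 7 pairs, 0 of 12884 genes passed edgeR's quasi-likelihood test (0%), with 1052 at an unadjusted p under 0.05. DESeq2 also gave 0, with 617 unadjusted, and limma-voom 0. Without mouse 4, 186 of 12911 genes passed (1.44%), of which 103 were higher in the second preparation (0.798%) and 83 lower (0.643%). Their median absolute log2 fold change was 0.124, and 166 of the 186 went the same way in all 6 pairs. The genes named next come from the 6 pairs and were chosen after their values were seen.

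Among the genes higher in the second preparation was Kcnq1ot1, a very long imprinted noncoding RNA, which rose in every one of the 6 pairs, from 16 to 19 CPM up to 19.2 to 23 CPM (log2fc 0.29, SE 0.04, edgeR adjusted p = 0.00124). Foxn3, a forkhead factor, and Naca, a subunit of the nascent chain complex with a long muscle isoform, rose by 0.22 and 0.21 log2 units. Foxn3 read 36, 26, 39.6, 37.1, 40.5 and 40.8 CPM in mice 1, 2, 3, 5, 6 and 7 of the first preparation and 43.2, 36.6, 43.3, 40.6, 43.9 and 46.2 in the second, higher in each pair.

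Among the genes lower in the second preparation the inducible heat shock gene Hspa1a fell by 0.43 log2 units (SE 0.11, edgeR adjusted p = 0.0449), from 1.78 to 4.34 CPM down to 1.43 to 3.4 CPM. Gar1, a small nucleolar ribonucleoprotein subunit, fell by 0.30 and was lower in all 7 pairs, mouse 4 included. Dynll2, a dynein light chain, fell by 0.15 (adjusted p = 0.000241), with 390 to 447 CPM in the first libraries of the 6 mice and 348 to 392 in the second. Hnrnpa2b1, an RNA-binding protein, fell by 0.14 (adjusted p = 0.000336).

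The genes that passed differed in length. Of the 186 genes 184 had an exonic length, with a median of 5832.5 bases for those higher in the second preparation and 1585.5 bases for those lower, against 3373 for all genes tested. Their median GC content was 55.2% and 49%, against 50.3%. With the trend in length and GC content removed and mouse 4 left out, an alternative chosen after seeing the data, 131 of the 186 genes still passed in the same direction, 61 of the 103 higher and 70 of the 83 lower. Kcnq1ot1 then rose by 0.20 log2 units (edgeR adjusted p = 0.0047) and Foxn3 by 0.17 (0.00104), while Hspa1a fell by 0.46 (0.0162), Gar1 by 0.29 (0.0164) and Dynll2 by 0.15 (5.4e-09). Among the genes named next, Cmya5, Lrp1, Ldb3, Rps23, Col1a1, Fn1 and Fabp4 no longer passed.

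**Figure D5:**
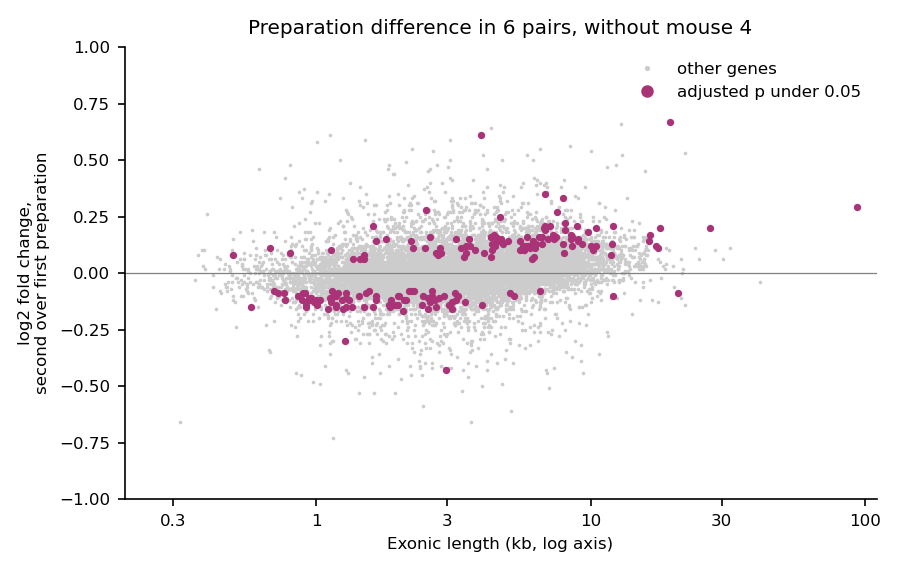
log2 fold change of the second over the first preparation against exonic length (kb, log axis) in the 6 pairs without mouse 4, for 12747 genes with a length; purple points are the 184 genes with an adjusted p under 0.05. The higher ones lie mostly to the right (median 5832.5 bases) and the lower ones to the left (median 1585.5 bases), and no point lies beyond 1 log2 unit.

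The shift between preparations was also examined by program. Over the 24 giant transcripts tested, such as those of titin and nebulin, the median log2 fold change was 0.226 with all 7 pairs and 0.083 without mouse 4, against 0.00269 and 0.00441 for all genes. Ttn read 15200 and 17700 CPM in mouse 1, 12000 and 16000 in mouse 2 and 7390 and 17300 in mouse 4. In the other mice its libraries were closer, with 18800 and 18600 CPM in mouse 3, 16400 in both of mouse 5, 18400 in both of mouse 6 and 19600 and 19900 in mouse 7. Of these 24 transcripts 2 passed without mouse 4, where 1.44% of all genes did, Cmya5 (0.08) and Lrp1 (0.14). At an unadjusted p under 0.05 in edgeR, 18 of the 24 passed, against 1993 of 12911 genes.

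The ribosomal proteins had a median of -0.118 with all pairs and -0.023 without mouse 4. Of their 75 genes 4 fell (Rpl14, Rpl13a, Rps23 and Fau) and 1, Rplp1, rose, without mouse 4, beside 0.643% and 0.798% of all genes. The gene listed as Rps3a1 stands in the table under its older symbol Rps3a and was not among the 75, and it fell as well (-0.13, adjusted p = 0.00927, edgeR). In oxidative phosphorylation the medians were -0.101 and -0.01. Without mouse 4 and on the same background, 6 of 77 genes fell, led by cytochrome c (Cycs, -0.13), and 2 rose, Cox6a2 (0.11) and Cox7c (0.1). At an unadjusted p under 0.05 in edgeR, 25 of the 75 ribosomal protein genes and 35 of the 77 passed. The replication histones, most of whose messages lack a poly-A tail, had medians of -0.162 and -0.064 over 13 genes, and 1 of them, the linker histone Hist1h1c, fell by 0.08 without mouse 4. Among the long noncoding RNAs, Neat1 fell by 0.09 and Kcnq1ot1 rose, out of 19.

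Other lists also held genes that passed for preparation without mouse 4, where 1.44% of all genes passed. In the fibroblast and collagen list Col1a1 (0.12, adjusted p = 0.00884, edgeR) and Fn1 (0.15) rose in the second preparation, 2 of 25. In the heat shock list Hspb6 (0.06) and Hspb7 (0.08) rose and Hspa1a fell, 3 of 18. In the clock list Nr1d1 (0.09) rose, 1 of 19, and in the adipocyte list Fabp4 fell by 0.09, 1 of 13. In the lipid oxidation list Acadvl fell by 0.08, 1 of 24. In the muscle lists Tnnc2 (1 of 12 fast sarcomere genes) and Asph (1 of 20 calcium handling genes) fell by 0.08 and 0.10, and Acta1, Ldb3 and Cmya5 (3 of 25 shared sarcomere genes) and Gapdh (1 of 20 glycolysis genes) rose by 0.06 to 0.08. No gene of the immediate early (0 of 24), glucocorticoid and atrophy (0 of 24), interferon (0 of 26), immune (0 of 18), tendon (0 of 15) or satellite cell (0 of 10) list passed for preparation in edgeR's test without mouse 4. At an unadjusted p under 0.05 the counts were 4, 5, 1, 1, 2 and 2 in that order, and no other tool was run on these 6 pairs. With a share of 1.44% over all genes, a count of 0 in lists of this size is near the background.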

How the data were processed

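Poly-A RNA of whole TA muscle was sequenced in 29 libraries, of which the 14 from 6m mice were used here. The deposited values are read counts per gene, which the authors made from bcl2fastq (2.20) output with STAR (2.5.4b) on mm10; the strand setting is not given in the sources used here. About 0.5 ug of total RNA entered a library according to the methods and about 0.1 ug according to the labels. Totals of 17633475 to 28581963 counts per library set the precision.

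Counts were analysed in R 4.3.3 with edgeR 4.0.16 (filterByExpr, TMM, quasi-likelihood F test, Benjamini-Hochberg at 0.05). The design held the run and the mouse as a block. The pairing comes from the titles, and was checked by the correlation of each library with its own repeat, which was above 0.1 in all 7 pairs (0.215 to 0.837). Preparation was tested as the run term and the mice as their 6 terms together, so the error is the spread between preparations and not between animals. DESeq2 1.42.0 and limma 3.58.1 were alternatives. CPM used TMM and log2 CPM a prior count of 2. Gene lengths came from GENCODE M21 on GRCm38, where 20202 of 22537 symbols matched directly, 1897 by a synonym and 438 not at all. The design was tested on simulated data. Motifs and figures used Python 3.11.15 and matplotlib 3.10.9.

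The genes named were the 15 highest by length-scaled level and by CPM, the 12 with the largest SD over mice among those past the threshold at a mean of 1 CPM or more, and in each list up to 4 each by level and by smallest p for mouse and for preparation. For preparation the rule took called genes that moved alike in all 7 pairs, which named none. Some genes past a threshold are not reported here. The members and the gene lists were chosen with earlier results of these data known. Of the alternatives, 3 were added after seeing the data (the first library of mouse 4 left out, mice 2 and 4 left out, and mouse 4 left out with the trend removed). The alternatives were other scalings, filters, tools, thinned counts, a removed trend with length and GC content, and each mouse left out in turn.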

Additional observations from a re-analysis of the deposited data

Results flagged for a closer look

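Of 43 sets of 7 values examined, 8 held a value far from the other 6 by Dixon's criterion, where chance alone flags about 1 set in 20. That rate does not apply to the genes below, which were taken as the member of each list with the smallest p between mice, and the 2 preparations of a gene are not separate tests. The value lay in mouse 4 in 3 sets, in mouse 2 in 3 and in mouse 3 in 2.

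In mouse 4, the SD of the log2 difference between its libraries was 0.603, against 0.203 to 0.243 in the other mice. Its first library, taken as deviations from the mean of the run, had a trend with transcript length of -0.657, against -0.002 to 0.448 in the other first libraries. Kcnj8, a potassium channel of pericytes and smooth muscle, read 41.4 CPM in that library and 16.6 to 27.1 in the other first libraries. Its second library, at 32.3 CPM, was also the highest of its run (others 16.7 to 26).

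In mouse 2, Col3a1 read 1400 CPM in the first preparation (others 116 to 387) and 1380 in the second (others 109 to 381). Mki67, a marker of dividing cells, read 2.46 CPM in its second library against 0.307 to 1.16. In mouse 3, Myod1 read 66 CPM in the first preparation (others 16.2 to 25.6) and 68 in the second (others 16.6 to 26.4).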

How the results depend on the processing

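The number of genes called between mice depended most on mouse 4. It was 2425 with all libraries, 7974 without mouse 4, 7795 without its first library alone, 7394 without mice 2 and 4, and 5637 after removal of the trend with length and GC content (with the replicate block). Leaving out 1 mouse at a time gave 1024 to 7974 genes, with 1024 without mouse 2 and 1456 without mouse 3, and 565 genes also had an SD of at least 0.5. DESeq2 gave 2407, of which 2030 were shared, and the other scalings, filters, limma-voom and thinned counts gave 2060 to 2459. For preparation the count was 0 under each of these with all mice, 0 without the replicate block (357 unadjusted, against 1052 with the mice paired), 0 to 186 when 1 mouse was left out, and 271 without mouse 4 after the trend was removed (107 higher, 164 lower). The trend of the difference with length ranged from 0.118 to 0.231 when 1 mouse was left out, with exact permutation p of 0.0625 except without mouse 3 (0.0312). On length-scaled counts the program shares were 18.3% (fast sarcomere), 9.37% (shared sarcomere), 0.201% (slow fibre), 5.95% (calcium), 7.73% (glycolysis), 6.59% (oxidative phosphorylation), 1.3% (lipid oxidation) and 2.3% (ribosomal). For the named genes 467 checks of the mouse call kept their side of the threshold and 10 lost it, namely Trp63 in 7, Dlk1 without mouse 2 and without mice 2 and 4, and Mki67 without mouse 2. A gene that a setting filtered out was not checked there, as with Ptgs2 without mouse 2 and with thinned counts. For preparation 303 checks stayed without a call, 36 gained one, and no direction was reversed. The genes checked were named from the fit without mouse 4, so their calls in that fit were fixed by the choice. All 36 gains came from fits without mouse 4, so these checks do not measure how firm the calls are. Genes under 1 CPM had a spread between preparations as large as counting error gives, so small differences there were not detectable at this depth.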
